A study of Mus musculus with 13 samples.

Results

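The plasminogen system of the heart was followed through the 5 genes given by name for it: Plat, Plau, Plaur, Serpine2 and Serpinf1. These are 5 of the 35793 gene entries kept from the table, and all 5 passed the filter on low counts. Plasminogen activators are serine proteases that cut plasminogen into plasmin, and plasmin in turn dissolves fibrin and opens matrix proteins. Tissue plasminogen activator acts mainly on fibrin, whereas urokinase works at the cell surface, held there by its receptor. Serpins of this pathway act as suicide substrates that trap the protease, and loss of urokinase in mice is known to impair the healing of infarcted hearts.

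The study is bulk RNA sequencing of 13 mouse hearts, set up to ask how blocking connective tissue growth factor (CTGF) changes the heart after infarction. In 5 animals the left anterior descending coronary artery (LAD) was tied permanently and FG-3149, a mouse monoclonal antibody against CTGF, was given at 10 mg/kg. Another 5 animals had the same ligation and a control IgG antibody at 10 mg/kg, and 3 sham-operated animals received no antibody, so sham differs from both infarcted groups in surgery and in antibody alike. All animals were of strain C57BL/6JO1aHsd and 8 to 10 weeks old when treatment began, and every sample carries the same time label, 1W+6W, which the labels do not spell out. RNA came from left ventricle outside the ischaemic zone, so the scar itself is not what was measured.

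Library totals ran from 10954920 to 12794823 estimated counts in the FG-3149 group, from 13084735 to 17567238 in the IgG group and from 12025880 to 14999813 in sham. The summed level of 7 cardiomyocyte markers lay between 56097 and 73204 CPM (counts scaled to the library total and by TMM factors) over all 13 libraries, as a heart muscle sample should have. That sum was 59520 to 65418 CPM in FG-3149 hearts, 56097 to 62544 CPM in IgG hearts and 67748 to 73204 CPM in sham hearts. Every infarcted library thus lay below every sham library, and the part of this in the differences from sham was not tested. Of all 13434 genes tested, 0.916% were called higher and 0.156% lower with FG-3149 than with IgG, against 17.8% higher and 15.9% lower in IgG hearts than in sham and 15.6% higher and 13.9% lower in FG-3149 hearts than in sham. The test was edgeR's quasi-likelihood test over all 13 libraries, and a gene counts as called where its p after Benjamini-Hochberg adjustment lies under 0.05. The 3 comparisons share libraries and are not independent of one another. A sequencing property also differed between the groups: over 4680 genes with 1 transcript, the median share of exon reads that fell in the first exon was 1.69 to 2.03% in FG-3149 libraries, 0.655 to 1.13% in IgG libraries and 0.531 to 0.636% in sham libraries. These ranges do not overlap, so this property and the antibody cannot be told apart across all genes. The median share in the last exon was 36.95 to 39.2% in FG-3149 libraries, 38.3 to 40.2% in IgG libraries and 41.1 to 42.0% in sham libraries. In comparisons with sham, exon shares thus cannot be told apart from infarction either.

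Among the 5 genes, the largest differences from sham were those of the serpin genes. In IgG hearts Serpinf1 was 4.11-fold and Serpine2 1.77-fold the sham level, Plau was 1.37-fold, and Plat and Plaur did not pass the test. In FG-3149 hearts Serpinf1 and Serpine2 were again above sham. Between FG-3149 and IgG hearts all 5 estimates were below 0 on the log2 scale, and 0 of the 5 were called. The label of the group, plasminogen activators and their inhibitors, fits Plat, Plau and Serpine2 by what they encode: a pair of activators and a true inhibitor. Plaur encodes the urokinase receptor, which is neither. Serpinf1 encodes pigment epithelium-derived factor (PEDF), a secreted serpin that is known not to inhibit proteases and to act against the growth of blood vessels.

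The promoters of Serpine2 and Serpinf1 are shown because these 2 genes were called in both comparisons with sham. Each is a window over the annotated start (RefSeq, GRCm38.p6), mostly upstream of it, written 5′ to 3′ on the gene's own strand. That of Serpine2 lies at chr1:79858616-79858915 on the minus strand and that of Serpinf1 at chr11:75422574-75422873 on the minus strand. Capitals mark CAGAC, the short motif bound by SMAD proteins, on either strand.
Serpine2: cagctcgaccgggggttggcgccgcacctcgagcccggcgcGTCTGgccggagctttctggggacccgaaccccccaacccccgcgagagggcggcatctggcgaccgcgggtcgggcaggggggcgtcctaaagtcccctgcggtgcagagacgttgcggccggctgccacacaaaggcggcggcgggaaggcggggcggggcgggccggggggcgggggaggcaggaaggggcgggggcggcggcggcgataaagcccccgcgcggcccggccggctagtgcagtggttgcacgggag
Serpinf1: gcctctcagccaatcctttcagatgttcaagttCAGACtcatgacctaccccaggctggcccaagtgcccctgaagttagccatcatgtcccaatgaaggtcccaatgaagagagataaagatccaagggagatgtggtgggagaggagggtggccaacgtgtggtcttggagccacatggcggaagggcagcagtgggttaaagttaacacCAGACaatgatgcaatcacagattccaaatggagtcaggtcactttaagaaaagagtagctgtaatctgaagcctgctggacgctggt
The Serpine2 window holds 1 CAGAC, and the Serpinf1 window holds 2. That motif is common, in 49.6% of the 32851 mouse promoters of the same length. GC boxes (GGGCGG, either strand, overlaps counted) separate the genes, with 6 in the Serpine2 window and 0 in the Serpinf1 window, against 35.7% of all promoters with at least 1. Neither window holds an AP-1 site (TGANTCA, in 7.81% of promoters), a TEAD site (GGAATG, in 14.7%), the E-box CACGTG (in 7.15%) or TATAAA (in 13.6%). The Plaur promoter has 1 AP-1 match and 3 GC boxes. Promoters of Plat and Plau were not used here. A match is only a run of letters, and its use in these hearts was not measured.

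Plat encodes tissue plasminogen activator (Entrez gene 18791, mm10 chr8:22757744-22782848, plus strand, 14 exons). It had 42.6, 39.5, 41.7, 33.7 and 25.8 CPM in FG-3149 hearts (replicates 1 to 5), 48.4, 58.6, 40.1, 34.2 and 29.0 CPM in IgG hearts (replicates 1 to 5), and 31.2, 31.5 and 32.6 CPM in sham hearts. The 3 sham libraries lie close together, while the infarcted libraries spread to both sides of them, so all 3 groups overlap. The coefficient of variation was 19.1% with FG-3149, 27.9% with IgG and 2.32% in sham.

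The difference in Plat between FG-3149 and IgG hearts was -0.20 ± 0.19 on the log2 scale (± SE, edgeR adjusted p = 0.699), with an interval of 2 SE each side from -0.58 to 0.18. In IgG hearts the log2 difference from sham was 0.41 ± 0.22 (edgeR adjusted p = 0.183), and in FG-3149 hearts it was 0.21 ± 0.23 (edgeR adjusted p = 0.53). Without IgG replicate 2 the difference between FG-3149 and IgG hearts was -0.05 and that between IgG and sham hearts 0.26. The first was -0.31 without IgG replicate 5 and -0.10 without FG-3149 replicate 5, and the difference between FG-3149 and sham hearts was 0.31 without FG-3149 replicate 5. The lowest Plat values of the infarcted groups went with the lowest values of Arntl, the core transcription factor of the circadian clock. Arntl had 13.8, 14.97, 18.5, 2.98 and 2.77 CPM in FG-3149 hearts and 15.8, 15.3, 4.82, 3.12 and 2.46 CPM in IgG hearts, and 31.7 to 37.4 CPM in sham hearts. Replicates 4 and 5 of both infarcted groups are the 4 infarcted libraries lowest in both genes. IgG replicate 3, also low in Arntl at 4.82 CPM, had Plat at 40.1 CPM. The part that what moves with Arntl has in the Plat values was not tested. Serpine2 was also lowest in replicates 4 and 5 within each infarcted group, whereas Plau was highest in replicates 4 and 5 of FG-3149 hearts. Dbp, another clock gene, had 58.7 to 173 CPM in infarcted hearts and 11.7 to 17.1 CPM in sham hearts. Per2 had 9.83 to 60.3 and 4.93 to 6.71 CPM, while Nr1d1 overlapped between them. Arntl, Dbp and Per2 thus set every infarcted library apart from sham. Their levels cannot be told apart from infarction in comparisons with sham.

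Plau encodes urokinase (Entrez gene 18792, mm10 chr14:20836662-20843388, plus strand, 11 exons). It had 7.27, 7.41, 8.92, 10.3 and 9.92 CPM in FG-3149 hearts, 8.86, 9.74, 10.7, 9.25 and 10.4 CPM in IgG hearts, and 7.87, 6.50 and 7.13 CPM in sham hearts. All 5 IgG libraries lie above all 3 sham libraries, as was the case for 18.2% of all genes tested. FG-3149 replicates 1 and 2 fall within the sham range, and replicates 3, 4 and 5 within the IgG range.

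Plau rose by 0.45 ± 0.13 (log2) in IgG hearts relative to sham (edgeR adjusted p = 0.012). Without sham replicate 2, the lowest sham library, the difference was 0.38 and was no longer called (edgeR adjusted p = 0.0749). In FG-3149 hearts the log2 difference from sham was 0.29 ± 0.13 (edgeR adjusted p = 0.11), although counts of the last exon alone gave 0.48 and a call (edgeR adjusted p = 0.0324). Between FG-3149 and IgG hearts the log2 difference was -0.16 ± 0.11 (edgeR adjusted p = 0.556), with an interval from -0.38 to 0.06, and it was -0.10 without FG-3149 replicate 1 or replicate 2.

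Plaur encodes the urokinase receptor, a protein anchored by lipid at the cell surface (Entrez gene 18793, mm10 chr7:24462500-24475873, plus strand, 7 exons). It was the least abundant of the 5, by CPM and per length, with 2.91, 2.14, 2.18, 2.05 and 1.95 CPM in FG-3149 hearts, 2.69, 3.32, 2.52, 2.83 and 1.997 CPM in IgG hearts, and 2.31, 1.49 and 2.24 CPM in sham hearts. The 3 groups overlap, and IgG replicate 2 and FG-3149 replicate 1 are the highest libraries. These levels rest on 22 to 34 estimated counts in FG-3149 libraries, 26 to 59 in IgG libraries and 22 to 29 in sham libraries. For the lowest, a count of 22, the exact 95% Poisson interval runs from 13.8 to 33.3, which covers counting error of 1 library only. The SE of the log2 difference between IgG and sham hearts was 0.222 for Plaur, near the 0.223 of Plat. Modest changes of either gene could be missed.

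Plaur passed no test on whole-gene counts. Its log2 difference was -0.26 ± 0.19 between FG-3149 and IgG hearts (edgeR adjusted p = 0.587) and 0.43 ± 0.22 between IgG and sham hearts (edgeR adjusted p = 0.145). Between FG-3149 and sham hearts it was 0.17 ± 0.23 (edgeR adjusted p = 0.613), and without sham replicate 2 it turned to -0.02. That last difference was 0.06 without FG-3149 replicate 1, 0.28 without sham replicate 1 and 0.26 without sham replicate 3. Without sham replicate 2 the difference between IgG and sham hearts was 0.24, and without IgG replicate 2 that between FG-3149 and IgG hearts was -0.16. Counts of the last exon alone, 4 to 22 a library, put Plaur 1.04 higher in IgG hearts than in sham (log2, edgeR adjusted p = 0.0396).

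Serpine2 encodes protease nexin-1, which inhibits thrombin, urokinase, tissue plasminogen activator and plasmin (Entrez gene 20720, mm10 chr1:79794321-79858665, minus strand, 9 exons). It had 42.1, 39.6, 37.4, 30.1 and 32.2 CPM in FG-3149 hearts, 48.4, 57.5, 46.3, 39.2 and 43.2 CPM in IgG hearts, and 28.4, 23.0 and 28.5 CPM in sham hearts. Every infarcted library exceeds every sham library. Against IgG, 0 of 5 FG-3149 libraries lie above the IgG median, yet the FG-3149 replicates 1 and 2 exceed the lowest IgG library.

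Serpine2 rose by 0.82 ± 0.13 (log2) in IgG hearts relative to sham (edgeR adjusted p = 0.000216). It also rose by 0.45 ± 0.13 in FG-3149 hearts relative to sham (edgeR adjusted p = 0.0184). In that comparison 16.6% of all genes tested had every FG-3149 library above every sham library, and for IgG libraries the share was 18.2%. Without sham replicate 2 the difference between FG-3149 and sham hearts was 0.35 and no longer called (edgeR adjusted p = 0.0992). Between FG-3149 and IgG hearts the log2 difference was -0.37 ± 0.11, with an interval from -0.59 to -0.15, and it did not pass after adjustment over all genes (edgeR adjusted p = 0.127, unadjusted 0.0038).

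Serpinf1 (Entrez gene 20317, mm10 chr11:75410029-75422623, minus strand, 8 exons) was the most abundant of the 5 per length. It had 79.0, 82.4, 73.0, 65.3 and 70.1 CPM in FG-3149 hearts, 76.6, 129.3, 86.4, 87.7 and 95.03 CPM in IgG hearts, and 23.5, 21.3 and 24.8 CPM in sham hearts. Every infarcted library lies far above every sham library. Among all genes tested, 18.2% had every IgG library above every sham library, and 16.6% had every FG-3149 library above them. IgG replicate 2 stands highest of all, and FG-3149 replicates 1 and 2 exceed the lowest IgG library.

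Serpinf1 rose by 2.04 ± 0.16 (log2, 4.11-fold) in IgG hearts relative to sham (edgeR adjusted p = 1.8e-06) and by 1.68 ± 0.16 (3.197-fold) in FG-3149 hearts relative to sham (edgeR adjusted p = 1.91e-05). Both calls held in all 22 alternative settings, where the IgG difference ran from 1.90 to 2.11 and the FG-3149 difference from 1.60 to 1.77. Between FG-3149 and IgG hearts the log2 difference was -0.36 ± 0.12, with an interval from -0.60 to -0.12, and it did not pass after adjustment (edgeR adjusted p = 0.201, unadjusted 0.0107). Without IgG replicate 2, the highest library, it was -0.22 (edgeR adjusted p = 0.232). At an unadjusted p under 0.05, 1849 of 13434 genes differed in that comparison.

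**Figure D1:**
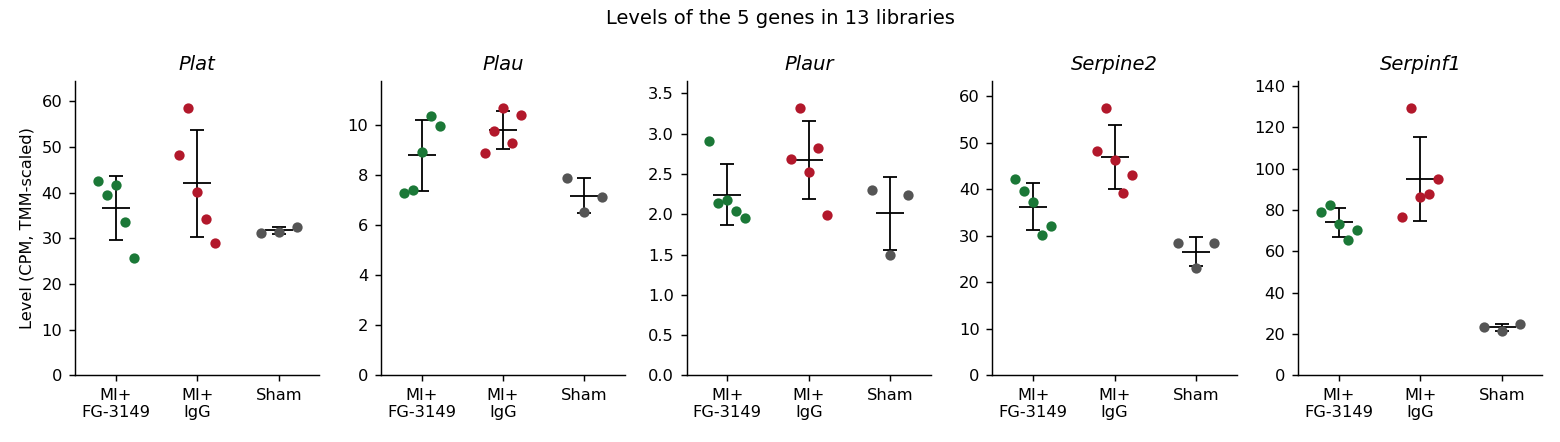
Level of each gene (y axis, CPM, from 0) in every library, with FG-3149 hearts (n = 5) left, IgG hearts (n = 5) in the middle and sham hearts (n = 3) right; points are libraries, bars the mean and SD. Serpinf1 lies between 65.3 and 129.3 CPM in infarcted hearts and between 21.3 and 24.8 CPM in sham hearts, while the groups overlap for Plat and Plaur.

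**Figure D2:**
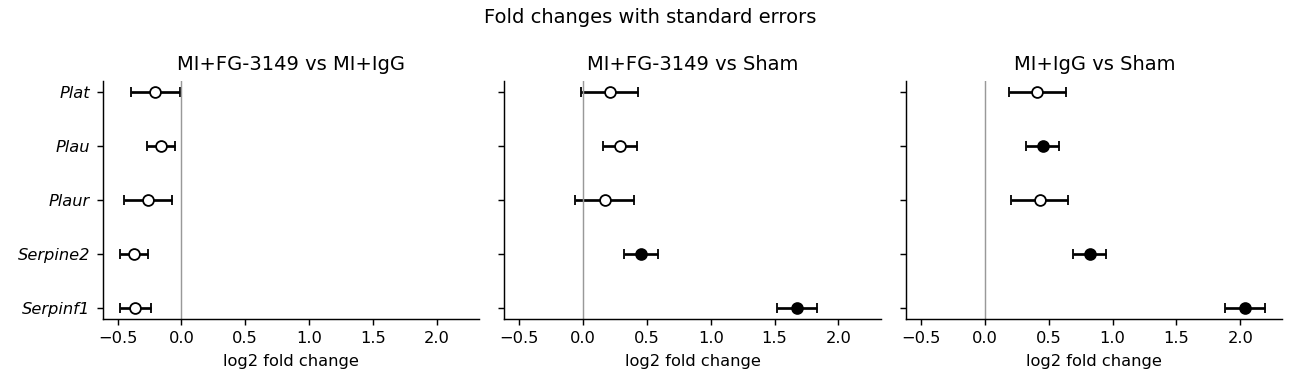
Log2 fold change (x axis) of the 5 genes in the 3 comparisons, with bars of 1 standard error; filled points have an edgeR adjusted p under 0.05. All 5 points lie below 0 and are open between FG-3149 and IgG hearts, and the largest difference is Serpinf1 in IgG hearts relative to sham, at 2.04.

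The order of the genes was compared per transcript length, with the authors' RPKM (reads scaled to transcript length and to the library total). Serpinf1 averaged 49.1 ± 5.4 RPKM in FG-3149 hearts, 64.2 ± 13.7 in IgG hearts and 15.5 ± 1.3 in sham hearts (SD, n = 5, 5 and 3). Serpine2 averaged 17.5 ± 2.6 RPKM in FG-3149 hearts, 23.1 ± 3.3 in IgG hearts and 12.95 ± 1.68 in sham hearts. Plat averaged 14.3 ± 2.8 RPKM in FG-3149 hearts, 16.8 ± 4.7 in IgG hearts and 12.5 ± 0.3 in sham hearts.

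Below these 3 genes the levels dropped. Plau averaged 3.70 ± 0.55 RPKM in FG-3149 hearts, 4.21 ± 0.28 in IgG hearts and 3.06 ± 0.33 in sham hearts. Plaur averaged 1.59 ± 0.28 RPKM in FG-3149 hearts, 1.94 ± 0.36 in IgG hearts and 1.44 ± 0.34 in sham hearts. The order Serpinf1, Serpine2, Plat, Plau, Plaur held in 5 of 5 FG-3149 libraries, 5 of 5 IgG libraries and 2 of 3 sham libraries, and in 1 sham library Plat stood above Serpine2. Serpine2 and Plat are the neighbours whose library ranges overlap in all 3 groups. Serpinf1 stood clear of the rest in both infarcted groups.

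Ratios within a library show the serpins against the activator whatever the library's total. The ratio of Serpinf1 to Plat (RPKM over RPKM) was 3.51 ± 0.65 in FG-3149 hearts, 3.995 ± 1.058 in IgG hearts and 1.24 ± 0.08 in sham hearts. Its ranges were 2.97 to 4.61 with FG-3149, 2.69 to 5.56 with IgG and 1.15 to 1.29 in sham, so both infarcted groups lie wholly above sham. The ratio of Serpine2 to Plat was 1.24 ± 0.18 in FG-3149 hearts, 1.42 ± 0.25 in IgG hearts and 1.03 ± 0.12 in sham hearts.

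The 2 serpins also shifted against each other. Serpinf1 over Serpine2 was 2.82 ± 0.18 in FG-3149 hearts, 2.79 ± 0.40 in IgG hearts and 1.202 ± 0.071 in sham hearts. The 2 infarcted groups overlap in this ratio and both lie above sham. The ratio of Plat to Plau, the 2 activators, was 4.02 ± 1.28 in FG-3149 hearts, 4.02 ± 1.24 in IgG hearts and 4.13 ± 0.42 in sham hearts, with overlapping ranges. These ratios are descriptions and were not tested.

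**Figure D3:**
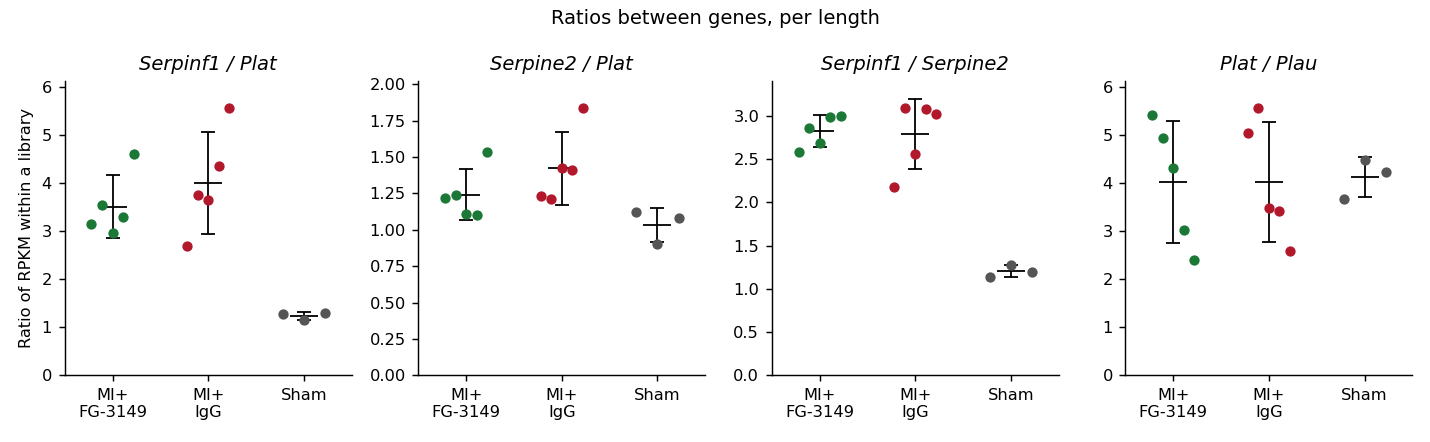
Ratio of RPKM between 2 genes within each library (y axis, from 0) for FG-3149 (n = 5), IgG (n = 5) and sham (n = 3) hearts; points are libraries, bars the mean and SD. Serpinf1 over Plat lies between 2.69 and 5.56 in all infarcted libraries and between 1.15 and 1.29 in sham, whereas Plat over Plau overlaps in all 3 groups.

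The exon counts place these differences along each transcript. Counting exons from the 5′ end and taking those with a mean of at least 20 reads a library, IgG hearts exceeded sham in 10 of 10 exons of Plat, 8 of 8 of Serpine2 and 7 of 7 of Serpinf1. The ratio of IgG to sham ran from 1.04 to 1.59 in Plat, from 1.47 to 1.999 in Serpine2 and from 3.78 to 4.59 in Serpinf1. The serpins were thus higher along the whole transcript. FG-3149 hearts lay below IgG hearts in 9 of 10 such exons of Plat, 8 of 8 of Serpine2 and 6 of 7 of Serpinf1.

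First exons went the other way. The ratio of FG-3149 to IgG hearts in exon 1 was 2.02 in Plat, 2.24 in Serpine2 and 3.85 in Serpinf1, with means of only 4.54, 6.49 and 2.38 reads a library in these exons. Exon 1 of Serpine2 held 1.35 to 2.99% of the gene's exon reads in FG-3149 libraries, 0.515 to 1.12% in IgG libraries and 0.138 to 1.11% in sham libraries. For Serpine2 and Serpinf1, though not for Plat, the first exon shares of FG-3149 and IgG libraries do not overlap, as is so for the median over all genes. When only last exons were counted (9338 genes tested), the log2 difference between FG-3149 and IgG hearts was -0.32 for Serpine2 (edgeR adjusted p = 0.168) and -0.22 for Serpinf1 (edgeR adjusted p = 0.506).

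**Figure D4:**
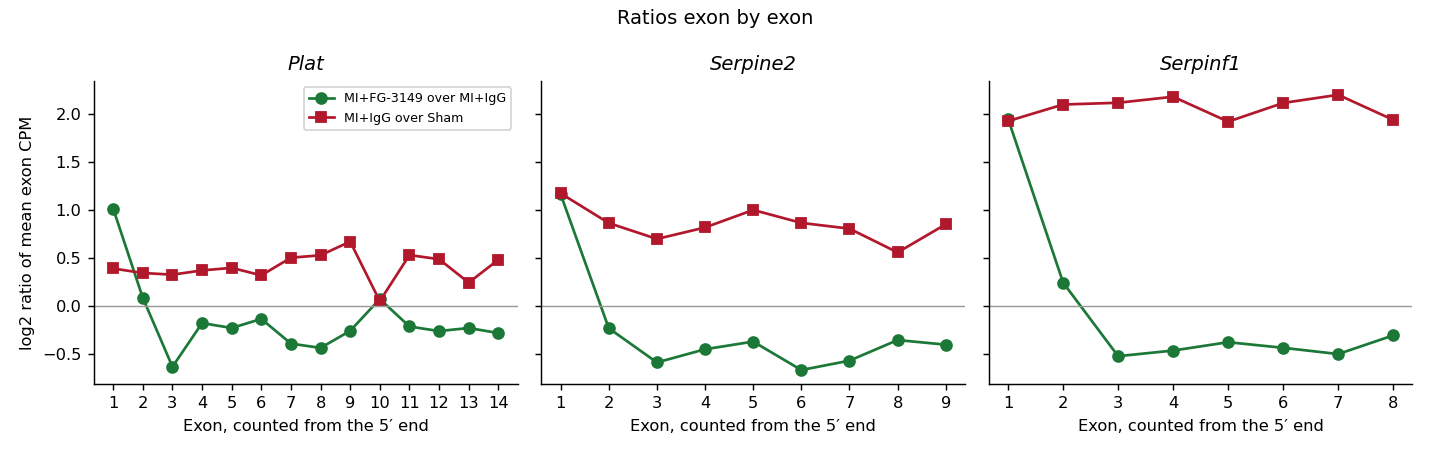
Log2 ratio of mean exon CPM (y axis) along the exons of Plat, Serpine2 and Serpinf1 (x axis, exon number from the 5′ end); circles are FG-3149 over IgG and squares IgG over sham, 1 point an exon with no error shown. Squares of Serpinf1 stay high along the gene, with ratios of 3.78 to 4.59, while its circles lie below 0 from exon 3 on and reach a ratio of 3.85 in exon 1.

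Most fibroblast markers were, like Serpine2 and Serpinf1, higher in both infarcted groups than in sham. The summed level of 8 fibroblast markers was 3449 to 4104 CPM in FG-3149 hearts, 3531 to 4933 CPM in IgG hearts and 2536 to 2690 CPM in sham hearts, and 7 of the 8 were called higher in IgG hearts than in sham, 7 of 8 in FG-3149 hearts than in sham, and 1 of 8, Lum, was lower in FG-3149 than in IgG hearts. The sum of 7 markers of activated fibroblasts was 706 to 1130 CPM in FG-3149 hearts, 1091 to 2167 CPM in IgG hearts and 131 to 153 CPM in sham hearts, with 7 of 7 called higher in each infarcted group. Over all genes tested, 17.8% were higher in IgG hearts and 15.6% higher in FG-3149 hearts than in sham. Only 0.156% were lower in FG-3149 than in IgG hearts. IgG replicate 2 had the highest sum of both lists, and the highest Plat, Plaur, Serpine2 and Serpinf1. Among FG-3149 libraries, replicate 3 had the highest fibroblast sum and the lowest activated fibroblast sum, with neither serpin highest or lowest there. The part of these markers in the serpin differences was not tested, and in bulk tissue more cells of a type cannot be told apart from more RNA per cell.

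Macrophage markers rose relative to sham as evenly as the fibroblast markers, and the remaining cell types moved less evenly. Of 8 macrophage markers tested, 7 were called higher in IgG hearts than in sham and 8 in FG-3149 hearts than in sham, with sums of 470 to 773 CPM in FG-3149 hearts, 445 to 682 CPM in IgG hearts and 328 to 339 CPM in sham hearts. Endothelial markers, a usual source of Plat, had 1 of 8 higher (Vwf) and 4 lower (Kdr, Tek, Tie1 and Emcn) in FG-3149 hearts than in sham and 1 higher (Vwf) and 2 lower (Kdr and Emcn) in IgG hearts than in sham. They summed to 1158 to 1228 CPM with FG-3149, 1056 to 1355 CPM with IgG and 1302 to 1426 CPM in sham. Over all genes tested, 17.8% were higher and 15.9% lower in IgG hearts than in sham. The shares for FG-3149 hearts relative to sham were 15.6% and 13.9%. Of the neutrophil markers 0 of 4 tested were called in any comparison, and Ly6g was at 0 in all libraries. Smooth muscle and pericyte markers had 3 of 7 higher in IgG hearts than in sham (Tagln, Cnn1 and Cspg4) and 1 of 7 lower in FG-3149 hearts than in sham (Kcnj8). Cardiomyocyte markers had Myh6, Tnni3, Ryr2 and Pln, 4 of 7, lower in each infarcted group than in sham, and Actn2 higher in FG-3149 hearts than in sham. Platelet markers had 1 of 3, Pf4, higher in each infarcted group than in sham, and 0 of 4 mesothelial and 0 of 2 lymphocyte markers were called in any comparison.

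Around the members, the rest of the plasminogen system was read from a list of 21 genes. Plasminogen itself (Plg) is made by the liver and had at most 1 read a library. Of 9 genes tested, 5 were higher and 1 lower in IgG hearts than in sham, with a median log2 difference of 0.77, against -0.001 over all genes tested. In FG-3149 hearts 6 were higher and 3 lower than in sham (median 0.60), and 0 of 9 were called between FG-3149 and IgG hearts (median -0.18, against -0.012 over all genes). For this and the following lists, the shares over all genes tested were 17.8% higher and 15.9% lower in IgG hearts than in sham. They were 15.6% and 13.9% in FG-3149 hearts relative to sham. Between FG-3149 and IgG hearts they were only 0.916% and 0.156%, so 0 calls in a short list say little.

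Partners that hold plasminogen at the cell surface were among those that rose in IgG hearts relative to sham. Anxa2 encodes annexin A2, a joint docking site for plasminogen and tissue plasminogen activator, and had 116.7 ± 2.8 CPM in FG-3149 hearts, 138.6 ± 18.5 in IgG hearts and 73.8 ± 3.9 in sham hearts. It rose by 0.91 ± 0.08 (log2) in IgG hearts relative to sham (edgeR adjusted p = 5.65e-07). S100a10, its binding partner, rose by 0.77 ± 0.09 in IgG hearts (edgeR adjusted p = 4.7e-06). Also in IgG hearts relative to sham, Lrp1, the endocytic receptor that clears protease and serpin complexes, rose by 1.04 ± 0.14 (edgeR adjusted p = 9.75e-05), and Mrc2, a collagen receptor that binds the urokinase receptor, rose by 0.93 ± 0.15 (edgeR adjusted p = 0.000461).

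Serpine2 also acts on thrombin, and the genes of that branch were mixed. Of 10 tested, 3 were higher and 1 lower in IgG hearts than in sham (median 0.28), 2 higher and 1 lower in FG-3149 hearts than in sham (median 0.24), and 0 were called between FG-3149 and IgG hearts (median -0.10). The counts in FG-3149 hearts relative to sham are close to the shares over all genes, 15.6% higher and 13.9% lower. The protease-activated receptor genes F2rl1 and F2r rose by 2.57 ± 0.31 and 0.76 ± 0.10 (log2) in IgG hearts relative to sham (edgeR adjusted p = 8.13e-06 and 2.2e-05). Tfpi, which encodes tissue factor pathway inhibitor, fell by 0.56 on the log2 scale in IgG hearts relative to sham (SE 0.08, edgeR adjusted p = 5.72e-05), and Pros1, which encodes the anticoagulant protein S, rose by 0.35 ± 0.07 (edgeR adjusted p = 0.0007).

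The next list holds partners of the urokinase receptor. It shares Lrp1, Mrc2 and Vtn with the plasminogen list, and some other lists share genes too, so their counts are not separate results. Of 11 tested, 7 were higher and 0 lower in IgG hearts than in sham (median 0.37), 5 higher and 2 lower (Vtn and Cav1) in FG-3149 hearts than in sham (median 0.27), and 0 were called between FG-3149 and IgG hearts (median -0.12). The integrin subunit genes Itgb3 and Itga5 rose by 1.10 ± 0.20 and 0.37 ± 0.07 (log2) in IgG hearts relative to sham (edgeR adjusted p = 0.000436 and 0.00086). Plaur itself was not called beside them.

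Growth factors that the activators or plasmin can release, with their receptors, gave 6 of 12 higher and 1 lower in IgG hearts than in sham (median 0.31). In FG-3149 hearts 4 were higher and 1 lower than in sham (median 0.24), and 0 of 12 were called between FG-3149 and IgG hearts (median -0.07). Met, the receptor of hepatocyte growth factor, rose by 1.85 ± 0.21 (log2) in IgG hearts relative to sham (edgeR adjusted p = 3.39e-06). Tgfb1, whose latent product plasmin can free, rose by 0.46 ± 0.10 (edgeR adjusted p = 0.00226), and Thbs1, which encodes thrombospondin-1, by 2.65 ± 0.57 (edgeR adjusted p = 0.00522). Bdnf, whose precursor plasmin cleaves, fell by 0.40 on the log2 scale (SE 0.10, edgeR adjusted p = 0.00348).

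Matrix metalloproteinases and their inhibitors had 5 of 8 higher and 0 lower in IgG hearts than in sham (median 0.87), 4 of 8 higher in FG-3149 hearts than in sham (median 0.70), and 0 called between FG-3149 and IgG hearts (median -0.24). All 3 inhibitor genes of the list were among those higher. Timp1 rose by 4.58 ± 0.34 (log2) in IgG hearts relative to sham (edgeR adjusted p = 4.08e-07), Timp2 by 0.95 ± 0.12 (edgeR adjusted p = 5.8e-05) and Timp3 by 1.15 ± 0.19 (edgeR adjusted p = 0.000906). Mmp2, a gelatinase gene, rose by 1.08 ± 0.11 (edgeR adjusted p = 3.95e-06) and Mmp3 by 0.80 ± 0.27 (edgeR adjusted p = 0.0338). The other metalloproteinase genes of the list, Mmp9, Mmp13 and Mmp14, were not called in IgG hearts relative to sham.

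The genes through which Serpinf1 is known to act were split. Of 8 tested, 2 were higher and 4 lower in IgG hearts than in sham (median -0.09), 2 higher and 2 lower in FG-3149 hearts than in sham (median -0.08), and 0 were called between FG-3149 and IgG hearts (median -0.03). Plxdc2, a membrane receptor for PEDF, rose by 0.78 ± 0.10 (log2) in IgG hearts relative to sham (edgeR adjusted p = 1.06e-05), while Plxdc1, its sister receptor, fell by 0.65 on the log2 scale (edgeR adjusted p = 0.00253) and Pnpla2, another gene for a PEDF receptor, fell by 0.18 (edgeR adjusted p = 0.0479). Col1a1, which encodes a chain of the type I collagen that PEDF binds, rose by 1.24 ± 0.22 (edgeR adjusted p = 0.00142). Vegfa and Kdr, the vascular growth factor opposed by PEDF and its receptor, fell by 0.40 and 0.59 on the log2 scale in IgG hearts relative to sham (edgeR adjusted p = 0.000612 and 0.000394).

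The serpin family at large gave 7 of 15 tested higher and 0 lower in IgG hearts than in sham (median 0.47), 7 higher and 2 lower in FG-3149 hearts than in sham (median 0.36), and 0 called between FG-3149 and IgG hearts (median -0.28). Most of its 65 other genes in the table were too low to test. Serping1, the inhibitor of complement C1, rose by 0.85 ± 0.11 (log2) in IgG hearts relative to sham (edgeR adjusted p = 3.09e-05). Serpinb1c and Serpinb6a rose by 4.12 ± 0.49 and 0.47 ± 0.06 (edgeR adjusted p = 6.71e-06 and 1.12e-05), values that are uncertain because both genes have close copies whose reads the counting may have shared.

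Among the 10 infarcted libraries, with each group's mean taken off, Plat and Serpine2 had the highest correlation of log2 CPM, with Pearson r = 0.823 (exact permutation p = 0.00729, 0.0729 after adjustment over the 10 pairs) and Spearman rho = 0.818 (exact permutation p = 0.00715, adjusted 0.0648). Without the 2 libraries farthest from the median of Plat, r was 0.912. Plau went the other way, with negative r to each other member, from -0.609 with Serpine2 to -0.267 with Serpinf1. With Plaur its Spearman rho was -0.745 (exact permutation p = 0.0153, adjusted 0.0648). After adjustment 0 of the 10 pairs passed, and the points share their library and its depth. Replicates 4 and 5 of each infarcted group, low in Arntl, were also the lowest of their group in Plat and Serpine2.

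**Figure D5:**
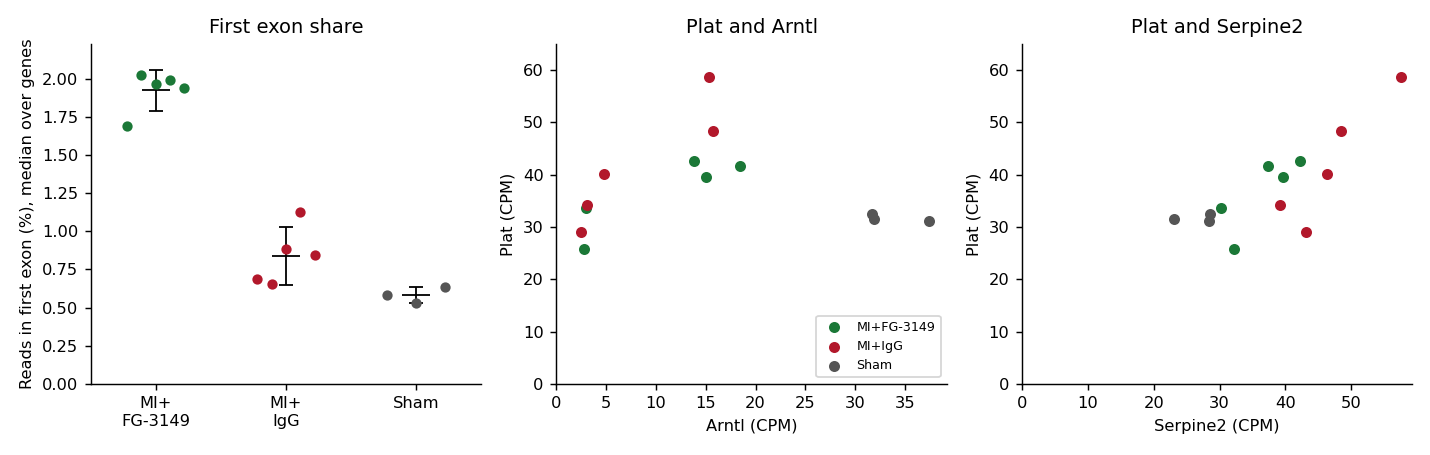
Left, median share of exon reads in the first exon (y axis, %) by group, with mean and SD; middle and right, Plat (y axis, CPM) against Arntl and against Serpine2 (x axes, CPM), 1 point a library of the 5 FG-3149, 5 IgG and 3 sham hearts. The first exon share is 1.69 to 2.03% with FG-3149, 0.655 to 1.13% with IgG and 0.531 to 0.636% in sham, and Plat is lowest in infarcted libraries with the least Arntl.

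The genes whose pattern over the 10 infarcted libraries was most like each member, with group means taken off, were found among 11902 genes by Pearson r. For Plat they were Mmp14 (r = 0.984), Sash1 (0.976) and Spon2 (0.967). For Serpinf1 they were Mmp2 (r = 0.978), Col1a2 (0.97) and Nbl1 (0.964), and for Serpine2 they were Cttnbp2nl (0.969), Col3a1 (0.952) and Nedd9 (0.951). For Plau they were Surf2 (r = 0.973), Ptdss1 (0.94) and Foxp3 (0.933), and for Plaur they were Klhdc7a (0.944), 4930523C07Rik (0.934) and Gm6548 (0.929). These are the highest of many values over few libraries and are given as a description.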

How the data were processed

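Per the labels' protocols, 500 ng of RNA entered a stranded mRNA kit and the 13 libraries were sequenced together, as single reads of 75 bases. The deposited tables hold estimated counts of genes and exons, without normalization. The authors also deposited RPKM values, scaled to length and library total. Of the gene counts above 0, 79.4% lay within 0.01 of a whole number. Per the submitters' processing notes the build was mm10. Which aligner, counter and strand setting made them is not given in the sources used here. From the 36172 gene entries, 379 that repeated a symbol were left out. Counts were rounded to whole numbers, kept by filterByExpr (13434 genes), scaled by TMM factors (0.969 to 1.033) and fitted with edgeR 4.0.16 (R 4.3.3) by the quasi-likelihood method over 3 groups. The SE is the absolute log2 fold change over the square root of F. Alternatives used DESeq2 1.42.0, limma 3.58.1, other filters, RPKM with a pseudocount of 1 or 0.1, a replicate block and leaving out each library.

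The 3 groups came from the titles. The design text speaks of animals, so replicates were treated as separate animals. For 13 of 13 libraries the like-named RPKM column was the one closest to the counts (lowest r 0.965 across 7806 genes), and 0 pairs of libraries had identical counts. No annotated gene overlaps the 5 genes. Scripts were tested on simulated data.

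The members, gene lists and tests were chosen with earlier results of these data known. The text names, from each list, up to 4 genes with the smallest p between IgG and sham hearts, and for each member the 3 genes most like it among those whose mean log2 CPM is 1 or more. Arntl, Dbp, Per2, Nr1d1, Plg, Plxdc1, Pnpla2, Vtn, Cav1, Mmp3, Mmp9, Mmp13, Mmp14 and the single cell type markers were picked with their values known. Some genes that this rule allowed are not reported here.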

Additional observations from a re-analysis of the deposited data

Results flagged for a closer look

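Plaur in FG-3149 replicate 1 lay apart from the rest of its group, at 2.91 CPM, with the next highest at 2.18 CPM. Its gap to that library was 0.757 of the whole range of the group. It rests on 34 estimated counts (exact 95% Poisson interval 23.6 to 47.5), against 22 to 28 counts in the other 4 libraries. It was 1 of 10 group values examined, and chance alone marks about 1 in 20.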

How the results depend on the processing

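The rise of Serpinf1 in both infarcted groups, and of Serpine2 in IgG hearts, relative to sham was called in all 22 alternatives. Leaving out 1 library at a time gave 0.38 to 0.52 (log2) for Plau between IgG and sham hearts, 0.35 to 0.51 for Serpine2 and -0.017 to 0.28 for Plaur between FG-3149 and sham hearts, the low ends coming without sham replicate 2. It gave 62 to 175 genes higher and 6 to 96 lower between FG-3149 and IgG hearts, and 1166 to 1896 lower between FG-3149 and sham hearts. The higher and lower counts between FG-3149 and IgG hearts were 123 and 21 in the reported fit, 220 and 58 with DESeq2 and 76 and 7 with the groups of the contrast alone, and the higher count was 77 with log2(RPKM + 1) and 72 with log2(RPKM + 0.1). In last exon counts, an alternative chosen after seeing the data, Plaur between IgG and sham hearts was 1.04 and Plau between FG-3149 and sham hearts 0.48, both called. The share of reads in last exons itself differed between sham and infarcted libraries, and cannot be told apart from infarction in both calls. The cause of these changes was not tested.

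Same-numbered FG-3149 and IgG libraries had correlations of their deviations of 0.178, 0.133, -0.023, 0.016 and 0.058, so the numbers were not taken as pairs. The same-numbered IgG library was the best match for FG-3149 replicates 1 and 2, and not for replicates 3, 4 and 5. With the replicate block, Plat was called at 0.60 (edgeR adjusted p = 0.000398) between IgG and sham hearts and at 0.41 (edgeR adjusted p = 0.00838) between FG-3149 and sham hearts, Serpine2 was called at -0.37 (edgeR adjusted p = 0.0196) between FG-3149 and IgG hearts, and the lower count there was 46. Sham has no replicates 4 and 5, so infarcted libraries of these numbers do not bear directly on blocked differences from sham. They are the infarcted libraries lowest in Plat, so the blocked Plat calls rest on the higher ones. Plaur, with 22 to 59 counts a library, is the member with the fewest counts.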
